A study of Mus musculus with 4 samples.

Results

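The genes described here are 47 that copy the genome or feed its copying: the replicative helicase, its loaders and activators, the DNA polymerases, the sliding clamp and its loader, the single-strand binding protein RPA, the enzymes that join Okazaki fragments, the makers of deoxynucleotides, the E cyclins and the chromatin factors of the fork. The rule is a list of gene symbols and sets no threshold on a measured value, but the list was drawn up with earlier results of these data known, so the shared sign reported below is a description. All 47 were among the 22520 genes of the deposited tables, all 47 had counts that could be read and all 47 passed the filter on low counts, which left 13676 genes. RNA was taken from C57BL/6 marrow depleted with magnetic beads of cells bearing mature lineage markers, a fraction rich in blood stem and progenitor cells. The groups were 2 Cyba-/- mice, called Cyba-KO below, and 2 wild type (WT) mice. Both genotypes are C57BL/6, and the sources used here give no age, no treatment and no description of the allele. Cyba encodes p22phox, the membrane subunit that several NADPH oxidases need to make superoxide. Each library is 1 mouse and carries the number its title gives it.

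DNA replication starts at origins, where the origin recognition complex with Cdc6 and Cdt1 loads the ring-shaped MCM helicase in the first gap phase of the cell cycle. The kinase that cyclin E activates and other kinases then help to recruit Cdc45 and the GINS complex. The activated helicase opens the double strand for primase, the polymerases and the clamp. Many of these genes are transcribed together late in the first gap phase under E2F factors, which the retinoblastoma proteins hold in check. In marrow, dividing progenitors carry most of these transcripts and resting stem cells carry little.

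Promoter windows were read from RefSeq (GRCm38.p6) for 38 of the 47 genes, 45 windows in all, each running from 250 bases before a transcription start to 50 bases after it. They are shown because E2F factors are known to act on many genes of this set. The motif was taken as TTTGGCGC, TTTCGCGC, TTTCCCGC or TTTGCCGC on either strand. It stood in 14 of the 45 windows (31.1%), in 2.27% of all 32851 windows and in 3.78% of the windows of tested genes. By gene, 14 of 38 members held it, among them Mcm3, Mcm5, Mcm6 and Mcm7. Of the 20 matches, 12 began within 100 bases of the start, and in Mcm5 and Mcm6 2 matches on opposite strands overlap. The CCAAT box (CCAAT, either strand) stood in 60% of the members' windows, in 37.4% of all windows and in 37.8% of the windows of tested genes. The CHR element (TTTGAA, either strand) is known from genes of mitosis. It stood in 11.1% of the members' windows, near the 12.6% of the windows of tested genes, and in 17.9% of all windows. A match is a run of letters and no evidence of binding. Windows with a match are shown for 5 members from 5 role groups, and the other windows of Lig1 and Uhrf1 held none. They follow on the strand of the gene, with E2F matches in capitals.
Mcm6, chr1:128359656-128359955, minus strand: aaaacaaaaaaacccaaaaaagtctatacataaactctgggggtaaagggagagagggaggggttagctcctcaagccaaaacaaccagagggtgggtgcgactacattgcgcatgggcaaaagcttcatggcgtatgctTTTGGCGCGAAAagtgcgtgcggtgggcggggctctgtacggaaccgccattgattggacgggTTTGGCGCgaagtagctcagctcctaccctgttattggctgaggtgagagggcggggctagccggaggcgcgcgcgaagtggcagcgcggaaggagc
Orc1, chr4:108579204-108579503, plus strand: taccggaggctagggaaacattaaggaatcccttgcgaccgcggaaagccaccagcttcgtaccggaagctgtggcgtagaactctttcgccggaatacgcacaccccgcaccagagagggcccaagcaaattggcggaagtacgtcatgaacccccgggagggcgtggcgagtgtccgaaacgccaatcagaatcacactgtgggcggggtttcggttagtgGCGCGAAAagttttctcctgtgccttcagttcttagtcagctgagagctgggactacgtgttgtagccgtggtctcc
Pola1, chrX:93632106-93632405, minus strand: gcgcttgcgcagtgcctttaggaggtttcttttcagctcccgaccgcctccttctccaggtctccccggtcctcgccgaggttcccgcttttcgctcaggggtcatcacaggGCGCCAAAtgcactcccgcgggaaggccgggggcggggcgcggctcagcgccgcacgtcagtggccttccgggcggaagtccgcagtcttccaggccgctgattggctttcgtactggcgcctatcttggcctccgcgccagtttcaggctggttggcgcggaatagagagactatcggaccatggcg
Lig1, chr7:13278576-13278875, plus strand: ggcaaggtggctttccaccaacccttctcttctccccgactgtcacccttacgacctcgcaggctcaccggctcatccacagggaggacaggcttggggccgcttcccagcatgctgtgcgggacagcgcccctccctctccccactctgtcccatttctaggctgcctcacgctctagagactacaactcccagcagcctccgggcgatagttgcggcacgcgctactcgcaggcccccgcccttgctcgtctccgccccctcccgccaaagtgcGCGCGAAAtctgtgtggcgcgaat
Uhrf1, chr17:56304063-56304362, plus strand: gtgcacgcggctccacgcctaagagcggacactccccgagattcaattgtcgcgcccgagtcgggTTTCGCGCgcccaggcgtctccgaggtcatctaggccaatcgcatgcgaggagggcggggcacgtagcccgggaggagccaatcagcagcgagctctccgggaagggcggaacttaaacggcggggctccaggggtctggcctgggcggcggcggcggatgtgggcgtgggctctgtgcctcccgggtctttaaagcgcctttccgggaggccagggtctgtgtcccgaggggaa

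The genotype labels were borne out by low Cyba RNA in the Cyba-KO libraries. Cyba had 28 and 32 reads in Cyba-KO libraries 1 and 2, against 1347 and 875 reads in WT libraries 1 and 2, a log2 fold change of -5.19 ± 0.28 (SE). Its adjusted p was 0.303 by the quasi-likelihood test of edgeR and 1.06e-43 by DESeq2. Summed counts were 23087720 and 22847932 reads in the Cyba-KO libraries and 23656400 and 22386816 reads in the WT libraries. Kit, a receptor of stem and progenitor cells, stood at 222 and 290 counts per 1000000 reads (CPM) in Cyba-KO, against 267 and 301 CPM in WT. The 11 tested stem cell markers, Kit among them, had no common sign, with 6 higher and 5 lower in Cyba-KO. They summed to 831 and 703 CPM in Cyba-KO and to 871 and 645 CPM in WT, lowest in WT 2. Transcripts of more mature cells were also present, and S100a9 of maturing neutrophils had 347 and 1277 CPM in Cyba-KO and 132 and 382 CPM in WT. Cyba-KO 1 and WT 2 lay at opposite ends both in replication genes and in red cell and granulocyte-monocyte markers, as given below. The same held by sum for eosinophil markers (2139 and 599 CPM in Cyba-KO, 718 and 408 CPM in WT). It also held for basophil and mast cell, T cell, pro-B and pre-B cell, and dendritic cell markers. Mature B and plasma cell markers were highest in WT 1 and lowest in WT 2. Macrophage and megakaryocyte markers had other orders. Immunoglobulin genes took 3.83% and 1.55% of reads in Cyba-KO and 2.72% and 0.519% in WT.

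Replication transcripts were abundant in these cells and lay somewhat lower in Cyba-KO, by amounts within the spread between mice. All 47 members had a log2 fold change below 0, as did 51% of the 13676 tested genes, with a median of -0.21 against -0.01 over all tested genes. The values ran from -0.73 for Ccne1 to -0.01 for Rfc2. Together the 47 genes summed to 7475 and 8382 CPM in Cyba-KO libraries 1 and 2 and to 8191 and 10322 CPM in WT libraries 1 and 2, so the groups overlapped. As a share of reads this was 0.727% and 0.857% in Cyba-KO and 0.821% and 1.03% in WT. In bulk RNA, fewer dividing cells and less RNA per cell cannot be told apart.

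No member passed the test, and the text gives values rather than changes for that reason. With edgeR's quasi-likelihood test and Benjamini-Hochberg adjustment over all tested genes, 0 of 47 members had an adjusted p under 0.05, as did 0% of all tested genes. The smallest adjusted p among members was 0.840. Without adjustment, 0 of 47 members had a p under 0.05, where 0.453% of tested genes did so in the lower direction and 2.8% in the higher. DESeq2 also called 0 members, with 0.00731% of genes called lower and 0.19% called higher, and it gave 0 members an unadjusted p under 0.05. Both Cyba-KO libraries lay below both WT libraries for 16 members (34.0%), where 16.2% of all tested genes did so, and above both for 0 members, where 17.6% of all tested genes did so. On the TPM scale (transcripts per 1000000, settled for 41 members) both Cyba-KO libraries lay below both WT libraries for 6 of 41 members (14.6%), near the 15.0% of all genes on that scale. Those 41 lack Orc1, Orc2, Pole and Chaf1a, which were among the 16, and Mcm10 and Gins2, which were not. The member shares on the CPM and TPM scales are thus not of the same genes. With 2 mice against 2, an exact two-sided permutation test of a single value cannot go below 0.333.

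**Figure D1:**
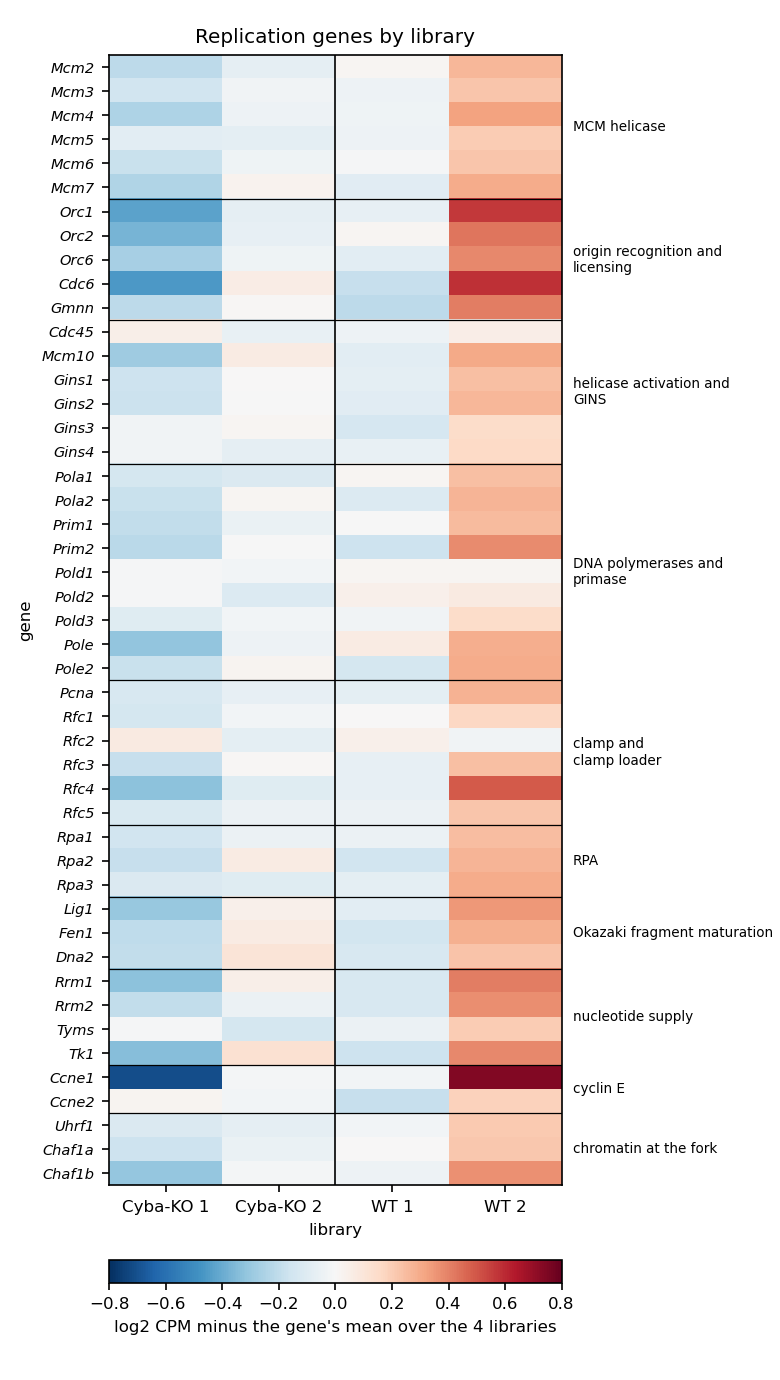
Log2 CPM of each of the 47 genes (rows, grouped by role) minus its mean over the 4 libraries (columns). Cyba-KO 1 is the lowest and WT 2 the highest library for 38 genes, and Cyba-KO 2 and WT 1 lie between them.

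The order of the mice was much the same from gene to gene. Cyba-KO 1 was the lowest library and WT 2 the highest for 38 of 47 members (80.9%), an order that 26.2% of all tested genes had. WT 2 was the highest library for 45 members, all but Pold1 and Rfc2, and for 5216 of the 13676 tested genes. Relative to each gene's mean, the median member stood at -0.18 in Cyba-KO 1, -0.03 in Cyba-KO 2, -0.07 in WT 1 and 0.26 in WT 2 on the log2 scale. Cyba-KO 2 and WT 1 could hardly be told apart, since Cyba-KO 2 was below WT 1 for 20 of 47 members and the median ratio of Cyba-KO 2 to WT 1 was 1.00. Among all 13676 tested genes Cyba-KO 2 was below WT 1 for 6745. The median ratio was 0.740 for Cyba-KO 1 over WT 2, 0.827 for Cyba-KO 2 over WT 2 and 0.937 for Cyba-KO 1 over WT 1. The WT mice differed more from each other than the Cyba-KO mice did for 42 members, a count that was not taken over all tested genes. Lanes of 1 library, which are repeat runs, differed far less, with a median ratio of highest to lowest lane of 1.08 against 1.35 for highest to lowest library. For 338 of the members' 752 lane values the decimal point was in doubt, and these were read partly by agreement of lanes. The lane ratio is thus not independent of that reading.

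The median of the members depended on WT 2. Without that library the median log2 fold change was -0.03, 31 of 47 members remained below 0, and the medians of the helicase activation, Okazaki fragment and nucleotide groups were 0.01, 0.09 and 0.00. The MCM genes (6 of 6), the clamp genes (6 of 6) and the chromatin genes (3 of 3) were still below 0 without it. In that fit 48.9% of all tested genes were below 0. Several of these members lay close to level, and Cyba-KO 2 was above WT 1 in Mcm3, Mcm7, Pcna, Rfc3, Rfc5 and Chaf1b. The Cyba-KO mean of Mcm7 was 455 CPM, against 458 CPM in WT 1. Leaving out Cyba-KO 1 gave a median of -0.12, leaving out Cyba-KO 2 gave -0.27 and leaving out WT 1 gave -0.34. With 1 library left out, the Cyba-KO values lay below the WT values for 18 members without Cyba-KO 1 (38.3%, all tested genes 24.3%), for 40 without Cyba-KO 2 (85.1%, all tested genes 38.5%), for 46 without WT 1 (97.9%, all tested genes 41.4%) and for 15 without WT 2 (31.9%, all tested genes 26.9%).

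**Figure D2:**
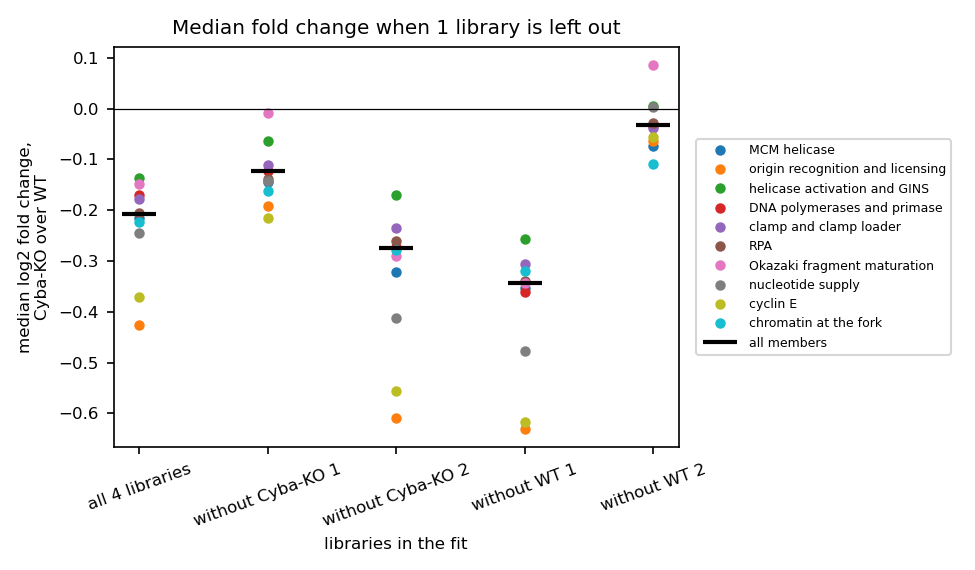
Median log2 fold change (Cyba-KO over WT) of each role group (coloured points) and of all members (black bars) in the fit to all 4 libraries and in fits without 1 library. Without WT 2 the median of all members is -0.03, against -0.21 with all 4 libraries.

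The MCM helicase had the highest median level per length of the role groups, 204 TPM over the 6 genes. Its subunits, Mcm2 to Mcm7, form the ring that unwinds DNA, and they took 33.6% and 33.1% of the members' summed CPM in Cyba-KO and 34.0% and 32.8% in WT. All 6 were lower in Cyba-KO (median log2 fold change -0.21). In 4 of them, Mcm2, Mcm4, Mcm5 and Mcm6, both Cyba-KO libraries lay below both WT libraries, as in 16.2% of all tested genes. Mcm2 had 370 and 406 CPM in Cyba-KO, against 431 and 513 CPM in WT (log2 fold change -0.28 ± 0.15 SE). Mcm4 had 287 and 330 CPM in Cyba-KO, against 331 and 425 CPM in WT (-0.30 ± 0.18). For Mcm4 the nearest values of the groups differed by under 2 CPM. Mcm6, whose promoter held 3 E2F matches, had 613 and 678 CPM in Cyba-KO, against 689 and 809 CPM in WT (-0.21 ± 0.15). Mcm3, Mcm5 and Mcm7 had log2 fold changes of -0.19, -0.17 and -0.21. Mcm7 hosts the microRNA genes Mir25 and Mir93 and shares 12.6% of its exonic bases with other genes.

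Origin recognition and licensing genes had the lowest median of the role groups, -0.43, and -0.06 without WT 2. Orc1, the subunit of the origin recognition complex that comes and goes with the cell cycle in mammalian cells, had 27.0 and 34.6 CPM in Cyba-KO, against 34.6 and 53.6 CPM in WT (log2 fold change -0.52 ± 0.27). Orc2, a core subunit, had 88.9 and 110 CPM in Cyba-KO, against 116 and 155 CPM in WT (-0.45 ± 0.20). In these 2 of the 5 genes both Cyba-KO libraries lay below both WT libraries, as in 16.2% of all tested genes. In Orc1, Cyba-KO 2 and WT 1 differed by under 0.1 CPM. Orc2 shares 29.8% of its exonic bases with Nif3l1. Orc6, the smallest subunit, had 60.0 and 70.4 CPM in Cyba-KO, against 68.2 and 94.0 CPM in WT. Gmnn encodes geminin, which binds Cdt1 and stops origins from being licensed again, and had 59.9 and 69.5 CPM in Cyba-KO, against 59.8 and 91.8 CPM in WT. In Orc6 and Gmnn the groups overlapped. Cdc6, the ATPase that helps to load MCM rings, varied 2.06-fold between its lowest and highest library, the second widest spread of all members after Ccne1, and its log2 fold change was -0.43 ± 0.33.

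The helicase activators had the median nearest 0, -0.14, and overlapping groups in all 6. Mcm10, which helps to switch on the loaded helicase, had 99.0 and 126 CPM in Cyba-KO, against 114 and 148 CPM in WT. Gins1 and Gins2 belong to the 4-subunit GINS complex. Gins1 had 34.7 and 39.0 CPM in Cyba-KO, against 36.8 and 46.0 CPM in WT. Gins2 had 28.0 and 31.5 CPM in Cyba-KO, against 29.7 and 37.8 CPM in WT, and 67.3% of its exonic bases are shared with Gse1. Without WT 2 the fold changes of Gins1 and Gins2 changed sign. Cdc45, the third partner of the active helicase, and Gins3 had log2 fold changes of -0.01 and -0.02, and Gins4 had -0.10.

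In the polymerases and primase the groups were apart in 5 of 9 members (Pola1, Prim1, Pold1, Pold2 and Pole), where 16.2% of all tested genes had both Cyba-KO libraries below both WT libraries, and the median was -0.17. Pole, the catalytic subunit of polymerase epsilon that copies the leading strand, had 126 and 153 CPM in Cyba-KO, against 164 and 192 CPM in WT (-0.35 ± 0.16). Pola1, the catalytic subunit of polymerase alpha that extends the RNA primer, had 145 and 148 CPM in Cyba-KO, against 161 and 189 CPM in WT (-0.26 ± 0.13). Prim1, the catalytic subunit of primase, had 89.4 and 98.5 CPM in Cyba-KO, against 102 and 122 CPM in WT (-0.26 ± 0.14). In these 3 genes each Cyba-KO mouse was below each WT mouse, with unadjusted p-values of 0.0852, 0.111 and 0.141 by edgeR. The counts of Pole and Pola1 could be read only by weighing the libraries together, as described below. The delta polymerase, which copies the lagging strand, showed less: Pold2 had 74.7 and 69.8 CPM in Cyba-KO, against 77.5 and 79.2 CPM in WT (-0.12 ± 0.11), and Pold1 had a log2 fold change of -0.03. Pola2, Prim2, Pold3 and Pole2 lay between -0.24 and -0.12 with overlapping groups.

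**Figure D3:**
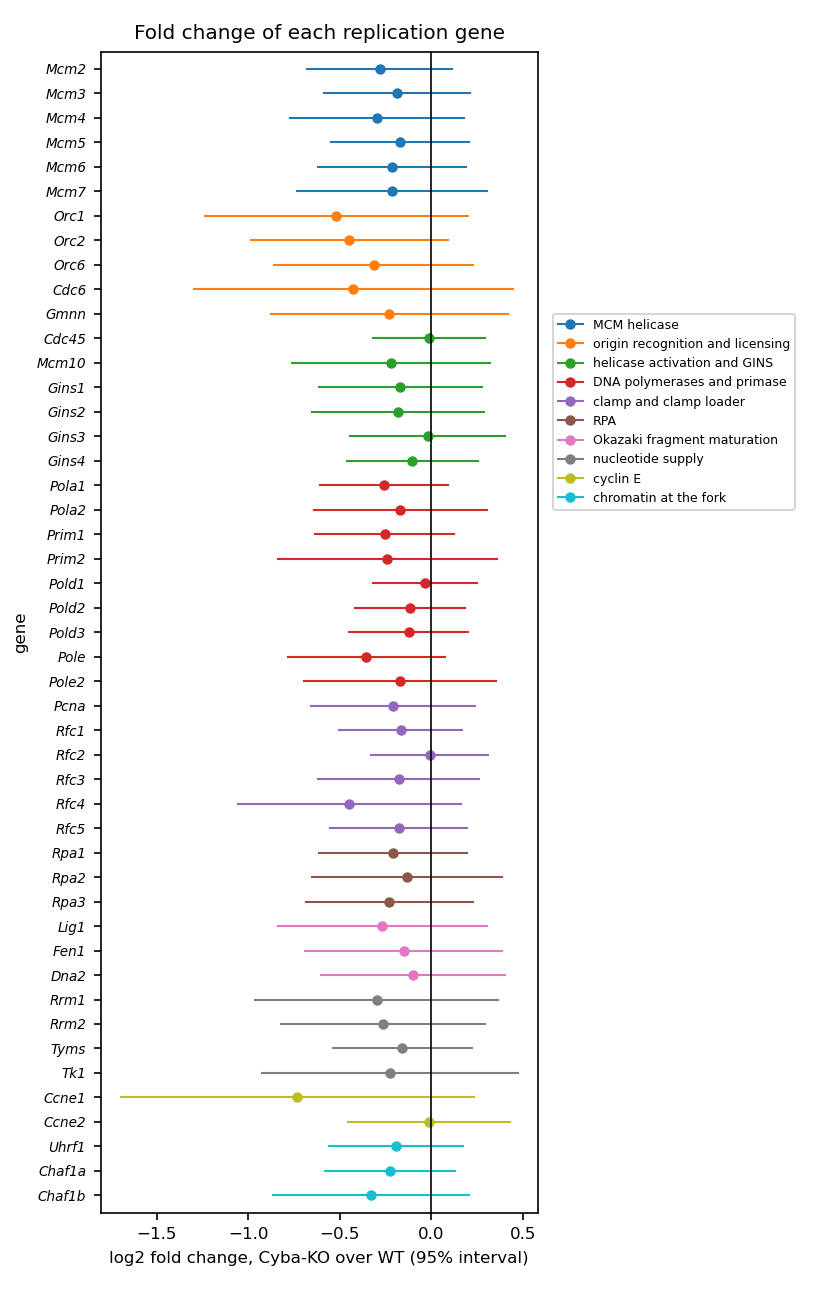
Log2 fold change of each gene (Cyba-KO over WT) with its 95% interval from the edgeR fit, coloured by role. All 47 points lie below 0 and all 47 intervals include 0.

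The clamp Pcna, which tethers polymerases to DNA, had 423 and 441 CPM in Cyba-KO, against 438 and 561 CPM in WT (-0.21 ± 0.17), and the groups overlapped. A processed pseudogene, Pcna-ps2, had 3.06 and 1.59 reads in Cyba-KO and 10.9 and 9.52 reads in WT, where Pcna itself had 9490 and 10316 reads in Cyba-KO and 10373 and 12555 reads in WT. Rfc4, a small subunit of the clamp loader, had 53.6 and 62.7 CPM in Cyba-KO, against 64.2 and 94.4 CPM in WT (-0.45 ± 0.23). Rfc1, the large subunit, had 156 and 170 CPM in Cyba-KO, against 172 and 193 CPM in WT (-0.17 ± 0.13). Both Cyba-KO libraries lay below both WT libraries in Rfc1 and Rfc4, 2 of the 6 genes, as in 16.2% of all tested genes. Rfc5 had 98.2 and 104 CPM in Cyba-KO, against 103 and 125 CPM in WT, and Cyba-KO 2 lay just above WT 1. Rfc2 was nearly level (-0.01 ± 0.12), and Rfc3 had -0.18.

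RPA coats the single strand that the helicase exposes. Rpa1, its large subunit, had 205 and 222 CPM in Cyba-KO, against 221 and 271 CPM in WT (-0.21 ± 0.15). Rpa2 had 94.9 and 113 CPM in Cyba-KO, against 97.1 and 130 CPM in WT, and its fold change turned positive when either Cyba-KO 1 or WT 2 was left out. Rpa3 had 29.5 and 29.9 CPM in Cyba-KO, against 30.3 and 39.3 CPM in WT. Of these 3, both Cyba-KO libraries lay below both WT libraries in Rpa3 only (all tested genes 16.2%), by a margin of under 1 CPM.

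In the Okazaki fragment group no gene had separate groups. Lig1, the ligase that seals the fragments, had 218 and 276 CPM in Cyba-KO, against 254 and 342 CPM in WT (-0.27 ± 0.21). Fen1, the flap endonuclease, had 154 and 186 CPM in Cyba-KO, against 160 and 216 CPM in WT, and 84.2% of its exonic bases are shared with other genes (Gm10143 and Tmem258). Dna2, a nuclease and helicase for long flaps, had 117 and 144 CPM in Cyba-KO, against 123 and 157 CPM in WT. In all 3, Cyba-KO 2 lay above WT 1, and without WT 2 Fen1 and Dna2 changed sign.

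Nucleotide supply followed the same order of mice, with a median of -0.25 and 0 of 4 genes with separate groups. Rrm1, the large subunit of the ribonucleotide reductase that makes deoxynucleotides, had 464 and 602 CPM in Cyba-KO, against 534 and 774 CPM in WT (-0.30 ± 0.25). Rrm2, its small and cell-cycle-controlled subunit, had 289 and 321 CPM in Cyba-KO, against 303 and 430 CPM in WT (-0.26 ± 0.21). Both subunits were highest in WT 2 and lowest in Cyba-KO 1. Tyms, thymidylate synthase, had 89.3 and 81.6 CPM in Cyba-KO, against 86.9 and 104 CPM in WT. Tk1, the thymidine kinase of the salvage pathway, had a log2 fold change of -0.23 ± 0.26.

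The E cyclins behaved unlike each other. Ccne1 had 46.3 and 75.1 CPM in Cyba-KO, against 74.7 and 127 CPM in WT, the lowest fold change of the set (-0.73 ± 0.36, 95% interval -1.70 to 0.24). It also had the widest spread, 2.74-fold from lowest to highest library, and Cyba-KO 2 lay just above WT 1. Ccne2 had 57.3 and 55.6 CPM in Cyba-KO, against 49.6 and 64.2 CPM in WT, so both Cyba-KO values lay between the WT values (-0.01 ± 0.17). The difference between the paralogues was not tested. The single RefSeq window of Ccne1 held no E2F match by the letters above.

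Chromatin factors of the fork had a median of -0.22. Uhrf1, which reads hemimethylated DNA and brings in the maintenance methyltransferase, had 330 and 339 CPM in Cyba-KO, against 352 and 413 CPM in WT (-0.19 ± 0.14). Chaf1a, the large subunit of the histone chaperone CAF-1, had 130 and 140 CPM in Cyba-KO, against 146 and 169 CPM in WT (-0.22 ± 0.13), and shares 52.5% of its exonic bases with Ubxn6. In both, each Cyba-KO library lay below each WT library, as in 16.2% of all tested genes. Chaf1b, the middle subunit, had 59.6 and 73.1 CPM in Cyba-KO, against 71.6 and 95.1 CPM in WT (-0.33 ± 0.20).

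Levels per length could be compared for 41 members whose TPM values were settled. Pcna ranked first with 300 and 368 TPM in Cyba-KO and 341 and 440 TPM in WT. Mcm2 ranked second with 211 and 290 TPM in Cyba-KO and 257 and 373 TPM in WT, and 6 of the next 7 were other MCM genes or reductase subunits. The MCM genes spanned 102 to 283 TPM by mean and did not reach equal levels, with Mcm4 lowest. Gins3 ranked last, with 8.58 and 9.99 TPM in Cyba-KO and 8.87 and 10.6 TPM in WT. Neighbours in this order overlapped over the 4 libraries in 39 of 40 pairs, and only Pola1 and Gins3 were apart, so the order within any short stretch is not resolved.

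**Figure D4:**
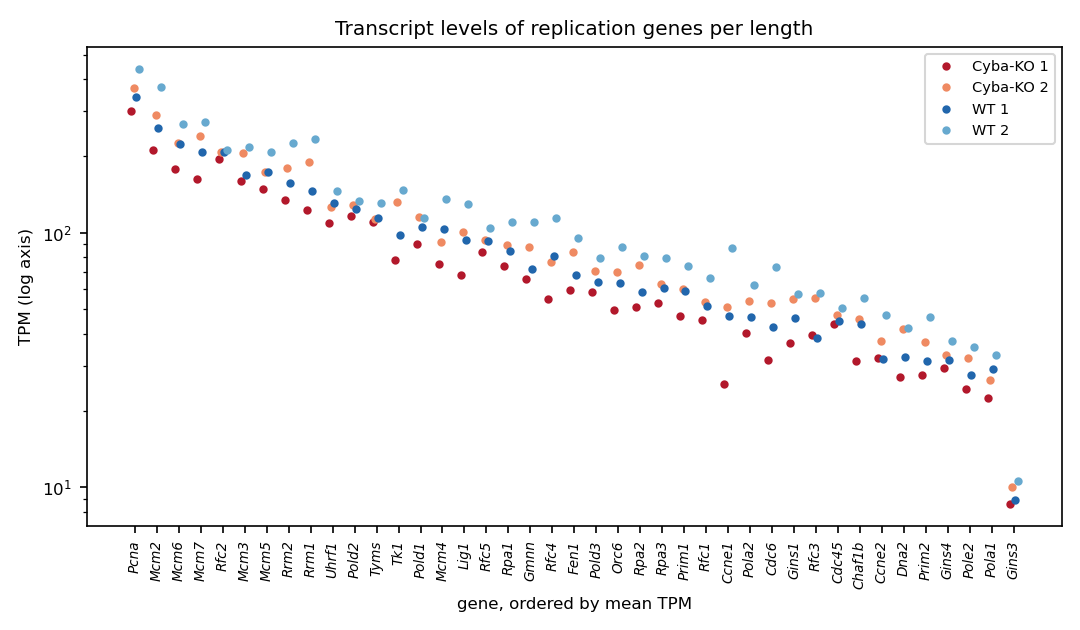
TPM (log axis) of the 41 members with settled values in each library, ordered by mean. Pcna is the highest with a mean of 362 TPM and Gins3 the lowest with a mean of 9.51 TPM.

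Other genes of the same pathways followed the members in sign. Of 38 other replication genes, 33 were lower in Cyba-KO and 5 higher, with a median log2 fold change of -0.21 and 0 called by edgeR or DESeq2. Mtbp, which acts with Ticrr in firing origins, had 32.7 and 35.6 CPM in Cyba-KO, against 39.9 and 49.0 CPM in WT. Ticrr had 74.0 and 79.7 CPM in Cyba-KO, against 89.2 and 91.3 CPM in WT. Atad5, which unloads the clamp, had 88.4 and 102 CPM in Cyba-KO, against 106 and 129 CPM in WT. Both Cyba-KO libraries were below both WT libraries in these 3, which were taken for their small p-values, and in 10 of the 38 (26.3%), where 16.2% of all tested genes did so.

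Among 21 other nucleotide genes, 16 were lower and 5 higher (median -0.19), and none was called. Cad, which begins pyrimidine synthesis, had 251 and 300 CPM in Cyba-KO, against 330 and 388 CPM in WT. Ctps, which makes CTP, had 78.9 and 82.8 CPM in Cyba-KO, against 92.9 and 104 CPM in WT. Samhd1, which breaks deoxynucleotides down, lay the other way with 196 and 205 CPM in Cyba-KO, against 153 and 139 CPM in WT (0.46, unadjusted p = 0.0144 and adjusted p = 0.840 by edgeR). The groups were apart in these 3 genes, which were taken for their small p-values. Of the 21, 9 had both Cyba-KO libraries below both WT libraries (all tested genes 16.2%). In 3 of the 21 both lay above (all tested genes 17.6%). The difference in sign between Samhd1 and the supply enzymes Cad and Ctps was not tested.

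The E2F and retinoblastoma family (10 of 13 lower, median -0.09) showed little as a whole. E2f4 had 151 and 234 CPM in Cyba-KO, against 204 and 315 CPM in WT, and its partner Tfdp2 had 66.7 and 103 CPM in Cyba-KO, against 88.7 and 133 CPM in WT. E2f6, a repressor of the family, had 57.6 and 62.4 CPM in Cyba-KO, against 68.9 and 76.3 CPM in WT. Groups were apart for E2f6 and overlapped for E2f4 and Tfdp2. Mitosis genes were lower in 18 of 20 (median -0.15), with separate groups in the lower direction in 1 (5%, all tested genes 16.2%). Mki67, the proliferation antigen, had 835 and 1180 CPM in Cyba-KO, against 1065 and 1586 CPM in WT. Ccnb1, the mitotic cyclin, and Kif20a, a kinesin of cytokinesis, also had Cyba-KO 2 above WT 1. Without WT 2 the median of the mitosis genes was 0.05 and 3 of 20 were lower.

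Genes of cell cycle entry and its inhibitors had no common sign, with 6 of 11 tested lower and a median of -0.00. The inhibitor Cdkn1b (p27) had 69.6 and 64.7 CPM in Cyba-KO, against 52.2 and 54.2 CPM in WT (0.34, unadjusted p = 0.0394 by edgeR). The inhibitor Cdkn2d (p19) had 32.7 and 31.2 CPM in Cyba-KO, against 27.0 and 21.3 CPM in WT. Both inhibitors were higher in each Cyba-KO mouse than in each WT mouse, as were 17.6% of all tested genes. Ccnd1 had 24.7 and 20.8 CPM in Cyba-KO, against 28.6 and 28.0 CPM in WT. None passed the adjusted threshold.

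Red cell markers moved with the replication genes from mouse to mouse. The 24 erythroid markers summed to 2399 and 6242 CPM in Cyba-KO libraries 1 and 2, against 4817 and 10348 CPM in WT libraries 1 and 2, and no defining marker was at 0. All 24 were lowest in Cyba-KO 1 and highest in WT 2, the order of 38 of 47 replication genes. Their median log2 fold change was -0.85, all 24 were below 0, the groups overlapped in all 24, and 0 were called by edgeR or DESeq2. Car2, the erythroid carbonic anhydrase, had 398 and 1043 CPM in Cyba-KO, against 758 and 1712 CPM in WT. The 12 markers of granulocyte-monocyte progenitors ran the other way, with sums of 19127 and 12326 CPM in Cyba-KO, against 14019 and 7000 CPM in WT. Mpo, their myeloperoxidase, had 10301 and 6962 CPM in Cyba-KO, against 7976 and 3910 CPM in WT. Monocyte markers also ran the other way, with sums of 3493 and 2941 CPM in Cyba-KO, against 2509 and 1676 CPM in WT. All 10 monocyte markers were higher in Cyba-KO (median 0.51), and 9 lay above both WT libraries in both Cyba-KO libraries, as did 17.6% of all tested genes. By edgeR 0 were called (5 with an unadjusted p under 0.05), and DESeq2 called 1. Over all tested genes, 2.8% were higher with an unadjusted p under 0.05 by edgeR, and DESeq2 called 0.19% higher. The 15 markers of maturing neutrophils summed to 1391 and 5364 CPM in Cyba-KO, against 588 and 1483 CPM in WT, with all 15 higher (median 1.72), 0 called by edgeR (5 with an unadjusted p under 0.05) and 2 by DESeq2. Their order of mice was not that of the replication genes, since Cyba-KO 2 was the highest library. The part of these cell types in the values of the replication genes was not tested.

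**Figure D5:**
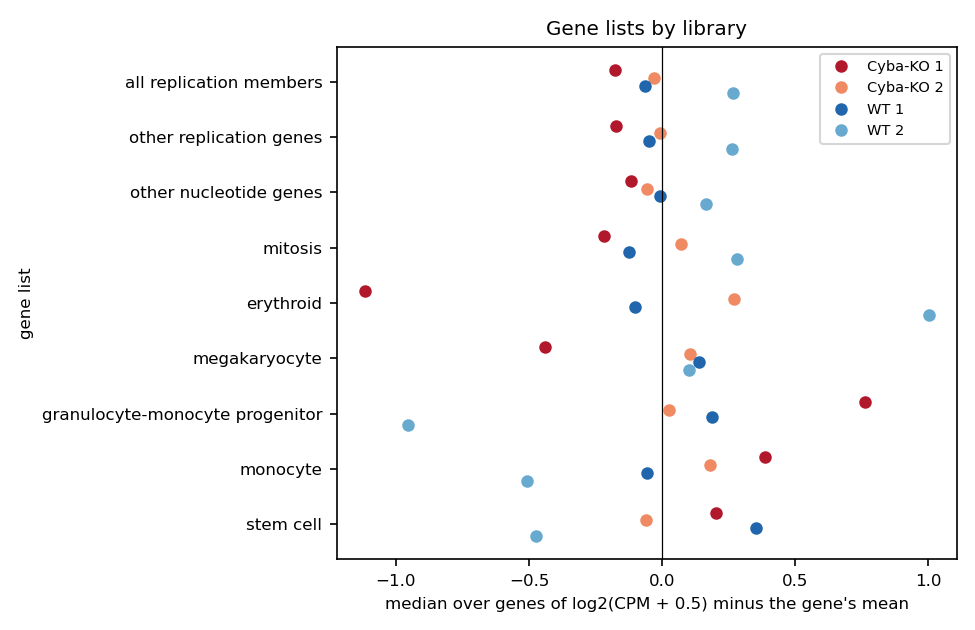
Median over the genes of each list of log2(CPM + 0.5) minus the gene's mean, for each library. The replication lists, mitosis and the erythroid markers are lowest in Cyba-KO 1 and highest in WT 2, and the granulocyte-monocyte progenitor markers are highest in Cyba-KO 1 and lowest in WT 2.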

How the data were processed

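Estimated counts and TPM values per gene in 4 lanes per library were deposited by the authors. Salmon, DESeq2 and the build GRCm38 are listed in the submitters' processing notes; versions and the strand setting are not given in the sources used here, so overlapping genes are uncertain. Values with 3 or more decimals had lost the decimal point. Readings of the estimated counts deposited by the authors were weighed per gene by agreement of lanes and libraries and by gene length (Python 3.11.15, numpy 2.4.6). A gene was used when none of its library totals had an expected error above both 5% and 1 read, which held for 21919 of 22520. Of the 47 members, 10 needed the tie between libraries: Orc2, Gins2, Pola1, Pola2, Prim2, Pole, Pole2, Rfc5, Tyms and Chaf1a. Among these, Orc2, Pola1, Pole and Chaf1a had both Cyba-KO libraries below both WT libraries. That tie draws libraries together. Lanes were summed and rounded. edgeR 4.0.16 (quasi-likelihood, TMM factors, default filter, two-sided, Benjamini-Hochberg, threshold 0.05) was the main test, and CPM use TMM-scaled sizes; alternatives included DESeq2 1.42.0 and limma 3.58.1. Symbols came from GENCODE vM21 (22357 identifiers matched). Both the repair and the tests were tested on simulated data. Members and lists were chosen with earlier results of these data known. Values in every library were given for the 3 genes with the smallest p of each role or pathway list (of mitosis, Mki67 only) and the most abundant of each role. Of the marker lists, Kit, S100a9, Car2 and Mpo were given in this way. The other marker lists were given as sums or by the order of libraries. The remaining members were given by fold change.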

Additional observations from a re-analysis of the deposited data

How the results depend on the processing

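The lower level of the members kept its sign under every scaling, filter and test run, with medians from -0.24 (TPM) to -0.20, and moved to between -0.34 and -0.03 when 1 library was left out, lowest without WT 1 and nearest 0 without WT 2. Members below 0 numbered 47 of 47 in all scalings, filters and count tests but limma-voom (46). They were 41 of 41 with TPM, 37 of 37 with no tie between libraries, and 31 to 46 with 1 library left out. The TPM scale was itself shifted, with 57.4% of all genes below 0, against 51.0% in the main fit. The count of members below 0 was added after seeing the data. Members below both WT libraries were 25.5% to 44.7% of those tested under other scalings, filters and the untied repair (all genes 14.2% to 16.9%), 6 of 41 on log2(TPM + 1) and 6 of 41 on log2(TPM + 0.1) (14.6%, all genes 15.0%), and 15 to 46 with 1 library left out (all genes 24.3% to 41.4%). Orc1, Orc2, Pole and Chaf1a, below both WT libraries on the CPM scale, had no settled TPM and are not among the 41. TPM per CPM of the 41 members was 0.521 and 0.609 in Cyba-KO and 0.553 and 0.598 in WT by median. The cause was not tested. Genes called in all numbered 27 by DESeq2, 27 by the edgeR likelihood ratio test, 1 by limma-trend on log2(TPM + 0.1) and 0 to 3 with 1 library left out, and no member was among them. Without WT 2, 16 of 47 members changed sign (Cdc6, Gmnn, Cdc45, Gins1, Gins2, Gins3, Gins4, Pola2, Prim2, Pole2, Rpa2, Fen1, Dna2, Rrm2, Tk1 and Ccne2); 3 did so without Cyba-KO 1, 3 without Cyba-KO 2, 1 without WT 1 and 1 with limma-voom.

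The labels give both genotypes replicates 1 and 2 but do not say that a number pairs mice. Same-numbered libraries deviated together over the tested genes (correlation 0.681), which with 2 pairs is only a hint. With the replicate number as a block, 1195 genes (8.74%) and 5 members (10.6%, near that share; Ccne1, Orc2, Orc1, Pole and Cdc6, adjusted p from 0.0158 to 0.0429) were called by edgeR, with a member median of -0.20, on 1 residual degree of freedom. With 2 mice per genotype, differences as small as those of most members were not resolved.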
